A study of Rattus norvegicus with 12 samples.

Results

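Superoxide dismutases, catalase and peroxiredoxins are the enzymes that remove superoxide and hydrogen peroxide, and their transcripts were followed here in the left ventricle of the rat heart. Members were all probe sets of the deposited value table whose single annotated gene symbol is Sod1, Sod2, Sod3, Cat, Prdx1, Prdx2, Prdx3, Prdx5 or Prdx6. This gave 8 probe sets of 31099 rows, 1 each for 8 of the 9 genes. The only probe set annotated to Prdx1 also carries a second gene symbol, so Prdx1 has no value below.

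The animals were female Sprague-Dawley rats, 16 months old, in 3 groups that differed in access to activity. EX rats had access to voluntary exercise for life, PA rats were active in a large box for 1 h, 2 times a week, and SED rats lived in a standard cage only. Each group had 4 Affymetrix Rat Genome 230 2.0 arrays, which read a transcript with a set of short probes. Per the design text, 12 rats of each group were used in pools of 4, which would fill fewer than 4 arrays. The animals behind an array are thus not settled, and p-values measure the spread between these pooled arrays.

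Superoxide, a by-product of mitochondrial respiration and of oxidases, is turned into hydrogen peroxide by superoxide dismutases. Sod1 works in the cytosol with copper and zinc, Sod2 in the mitochondrial matrix with manganese, and Sod3 is secreted and binds to the cell surface and matrix. Catalase, found mainly in peroxisomes, and the peroxiredoxins then reduce the peroxide to water, the peroxiredoxins through a reactive cysteine that is mostly recharged by thioredoxin. The heart respires at a high rate and is rich in mitochondria, and superoxide dismutases and peroxiredoxins are known parts of its protection against oxidant injury.

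1 array stood apart before any comparison. The correlation of the first sedentary array, SED 1, with the rest averaged 0.964, and the same average lay between 0.987 and 0.989 for each of the other 11 arrays. It also had the largest difference between the 3' and 5' control probe sets of Gapdh, 1.56 log2 units against 0.96 to 1.35 on the other arrays. SED 1 held the highest or the lowest of the 12 values for 55.3% of the 18626 tested probe sets, while no other array did so for more than 15.1%. The differences of the members against SED are therefore given with and without it. All other values are with all 12 arrays unless stated. The part of SED 1 in the results beyond these values was not tested. All SED arrays also had a narrower spread of values. Their interquartile ranges were 3.58 to 3.86 log2 units, against 3.89 to 4.04 in EX and 3.93 to 4.04 in PA. This difference in scale runs along with the SED group, and its part in the results was not tested. The mean over markers of heart muscle cells varied little: over 11 of 12 listed genes, among them Myh6, Tnnt2 and Myl2, it ran from 12.77 to 12.82 in EX, 12.78 to 12.83 in PA and 12.77 to 12.83 in SED. Single markers moved more on SED 1, from -0.37 for Ttn to 0.12 for Csrp3 against the median of the other 11 arrays.

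Promoter sequence is shown for the member that was lowest in SED 1 relative to its other arrays, Sod2, and for the member that was highest, Cat. Each run holds the 250 bases before the annotated start of the gene, from RefSeq on build GRCr8. The Sod2 stretch lies at chr1:50050169-50050418 and the Cat stretch at chr3:110329527-110329776, both read on the minus strand, 5′ to 3′. Capitals mark matches on either strand to 3 motifs: the core of the antioxidant response element, TGACNNNGC, the CCAAT box, CCAAT, and the GC box, GGGCGG.
Sod2: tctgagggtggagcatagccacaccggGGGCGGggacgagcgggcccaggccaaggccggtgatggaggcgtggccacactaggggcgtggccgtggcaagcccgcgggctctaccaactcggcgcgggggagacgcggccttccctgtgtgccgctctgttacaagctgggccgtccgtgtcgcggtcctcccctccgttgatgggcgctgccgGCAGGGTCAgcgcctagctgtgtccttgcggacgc
Cat: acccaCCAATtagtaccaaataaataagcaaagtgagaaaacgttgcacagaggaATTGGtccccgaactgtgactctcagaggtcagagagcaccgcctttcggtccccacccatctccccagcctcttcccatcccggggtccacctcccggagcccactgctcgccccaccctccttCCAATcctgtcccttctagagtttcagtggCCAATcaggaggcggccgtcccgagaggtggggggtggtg
In Sod2 the antioxidant response core, which the transcription factor Nrf2 binds, matched once, on the opposite strand, beginning 35 bases before the start. Cat held no such match but 4 CCAAT boxes, the nearest beginning 40 bases before the start. Of the 6 members listed in the promoter table (Sod1, Sod2, Cat, Prdx2, Prdx3 and Prdx5), Sod2 alone held the antioxidant response core, against 10.1% of all 33469 promoters. CCAAT boxes occurred in Cat and Sod1, against 34.0% of all promoters, and GC boxes in the 5 matched members other than Cat, against 30.5%. These are letter matches, not measured sites.

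The EX against SED and the PA against SED comparisons ask whether the ventricle carries different amounts of these transcripts after a life with exercise or with short activity sessions. No member passed the test in either comparison. By limma over all tested probe sets, 0 of 8 members reached an adjusted p of 0.05 in EX against SED, where 0% of 18626 probe sets did, and 0 of 8 in PA against SED, again with 0% of all probe sets. At an unadjusted p under 0.05 the members also numbered 0 of 8 in both, where 15.6% of probe sets in EX against SED and 15.2% in PA against SED lay under that value. The differences ran from -0.19 to 0.11 log2 units for EX against SED and from -0.14 to 0.18 for PA against SED. All 95% intervals included 0, and across the members they reached from 0.703-fold to 1.27-fold for EX over SED and from 0.729-fold to 1.34-fold for PA over SED. In bulk tissue, fewer cells of a type and less RNA per cell cannot be told apart, so these values describe the ventricle as a whole.

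**Figure D1:**
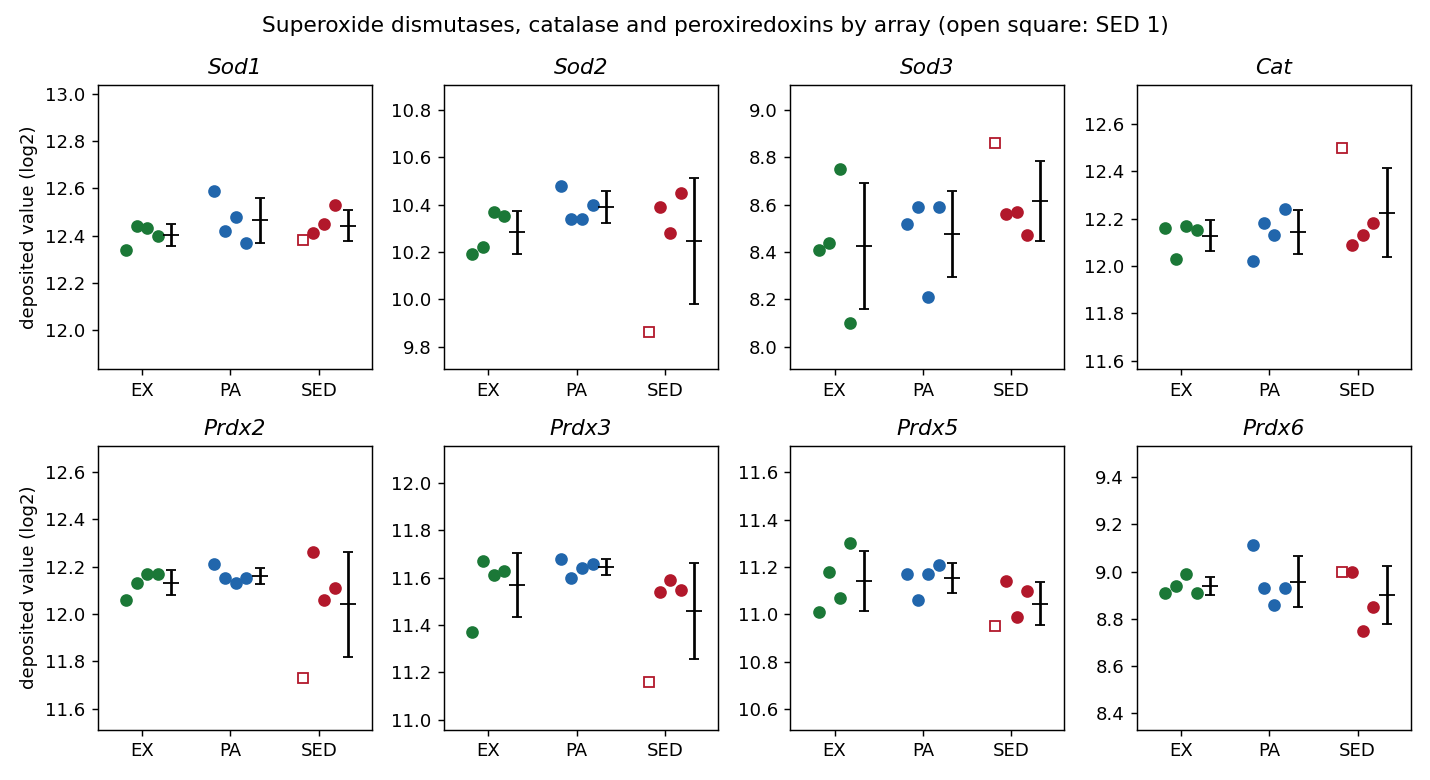
Deposited log2 values of the 8 members on each array (points), for EX, PA and SED from left to right, with the group mean and SD (n = 4) in black and SED 1 as an open square. Every panel spans the same height of log2 units; the groups share most of their range, and SED 1 lies low for Sod2, Prdx2 and Prdx3 and high for Sod3 and Cat.

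Sod1, the cytosolic copper-zinc enzyme, had the smallest residual SD of the members over all 12 arrays, while without SED 1 that of Prdx2 was smaller, at 0.065 against 0.071. It read 12.34, 12.44, 12.43 and 12.40 in EX, 12.59, 12.42, 12.48 and 12.37 in PA, and 12.38, 12.41, 12.45 and 12.53 in SED. The groups overlapped throughout, and the whole spread over 12 arrays was 0.25 log2 units. The EX mean was 12.40 ± 0.045, the PA mean 12.46 ± 0.095 and the SED mean 12.44 ± 0.065 (SD, n = 4 each). EX differed from SED by -0.040 ± 0.080 (SE), with an adjusted limma p of 0.839 and an interval of 0.862-fold to 1.10-fold. PA differed from SED by 0.023 ± 0.080 (SE), with an adjusted limma p of 0.915. The Sod1 differences without SED 1 were -0.061 ± 0.080 (SE) for EX and 0.0017 ± 0.080 for PA. Over tested probe sets of every signal level, dim and bright alike, 2.75% had a smaller residual SD than Sod1, whose value was 0.071.

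Sod2, the manganese enzyme of the mitochondrial matrix, read 10.19, 10.22, 10.37 and 10.35 in EX, and 10.48, 10.34, 10.34 and 10.40 in PA. In SED it read 9.86, 10.39, 10.28 and 10.45. SED 1 was the lowest of all arrays, 0.49 under the median of the other 11, and the remaining SED arrays lay inside the range spanned by EX and PA. EX differed from SED by 0.038 ± 0.12 (SE) and PA from SED by 0.14 ± 0.12, with adjusted limma p-values of 0.905 and 0.573. Without SED 1 the residual SD dropped to 0.081, against 0.17 with it, and the differences became -0.091 ± 0.084 (SE) for EX and 0.017 ± 0.084 for PA. The sign of the EX difference thus turned with that array.

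Sod3, the secreted enzyme, varied most within groups. It read 8.41, 8.44, 8.75 and 8.10 in EX, 8.52, 8.59, 8.21 and 8.59 in PA, and 8.86, 8.56, 8.57 and 8.47 in SED. The lowest value was on EX 4 and the highest on SED 1, with overlap between all groups. The EX mean was 8.43 ± 0.27 and the SED mean 8.62 ± 0.17 (SD, n = 4 each), and EX minus SED was -0.19 ± 0.15 (SE) at an adjusted limma p of 0.552. This was the largest difference of any member in EX against SED, and its interval, 0.703-fold to 1.09-fold, was the widest. PA differed from SED by -0.14 ± 0.15 (SE), with an adjusted limma p of 0.659. The Sod3 differences without SED 1 were -0.11 ± 0.14 (SE) for EX and -0.056 ± 0.14 for PA. Markers of smooth muscle cells and pericytes, of which Sod3 is a known product in vessels, had a mean over 7 of 8 listed genes of 7.52 to 7.79 in EX, 7.57 to 7.64 in PA and 7.59 to 7.78 in SED, and their part in the Sod3 values was not tested.

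Cat, the catalase gene, read 12.16, 12.03, 12.17 and 12.15 in EX, and 12.02, 12.18, 12.13 and 12.24 in PA. In SED it read 12.50, 12.09, 12.13 and 12.18. SED 1 was the highest array for Cat, while the other 3 SED arrays lay within the PA range. EX differed from SED by -0.098 ± 0.10 (SE) and PA from SED by -0.083 ± 0.10, with adjusted limma p-values of 0.675 and 0.714. Without SED 1 these differences were -0.0058 ± 0.081 and 0.0092 ± 0.081 (SE).

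Prdx2, an abundant cytosolic peroxiredoxin that is also plentiful in red cells, read 12.06, 12.13, 12.17 and 12.17 in EX, and 12.21, 12.15, 12.13 and 12.15 in PA. In SED it read 11.73, 12.26, 12.06 and 12.11, so that SED held both the lowest array, SED 1, and the highest, SED 2. The differences were 0.093 ± 0.11 (SE) for EX against SED and 0.12 ± 0.11 for PA against SED, with adjusted limma p-values of 0.705 and 0.591. Without SED 1 they were -0.011 ± 0.078 and 0.017 ± 0.078 (SE). Red cell markers (4 of 10 listed genes tested, among them Hbb and Alas2) had a mean of 7.31 to 8.02 in EX, 7.40 to 7.88 in PA and 7.0 to 8.05 in SED, with the lowest value on SED 1. Their part in the Prdx2 values was not tested.

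Prdx3, the peroxiredoxin of the mitochondrial matrix, came closest to a separation of groups. It read 11.68, 11.60, 11.64 and 11.66 in PA, against 11.16, 11.54, 11.59 and 11.55 in SED. The lowest PA array was thus above the highest SED array by a single hundredth of a log2 unit. It was the only member without overlap in PA against SED, 1 of 8, where 8.39% of tested probe sets had none. The PA mean was 11.64 ± 0.034 and the SED mean 11.46 ± 0.20 (SD, n = 4 each), and PA minus SED was 0.18 ± 0.11 (SE) at an adjusted limma p of 0.434, with an interval of 0.963-fold to 1.34-fold. Without SED 1 the difference was 0.085 ± 0.086 (SE), with an adjusted limma p of 0.750. EX arrays read 11.37, 11.67, 11.61 and 11.63, of which EX 1 was low and overlapped SED, and EX differed from SED by 0.11 ± 0.11 (SE) with an adjusted limma p of 0.655. That EX difference was 0.010 ± 0.086 (SE) without SED 1. In EX against SED, 0 of 8 members were without overlap, where 7.89% of probe sets were.

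Prdx5, found in mitochondria, peroxisomes and cytosol, read 11.01, 11.18, 11.07 and 11.30 in EX, and 11.17, 11.06, 11.17 and 11.21 in PA. In SED it read 10.95, 11.14, 10.99 and 11.10, with SED 1 lowest and with overlap between all groups. EX differed from SED by 0.095 ± 0.090 (SE) and PA from SED by 0.11 ± 0.090, with adjusted limma p-values of 0.637 and 0.569. These differences were among the least altered by SED 1, at 0.063 ± 0.090 and 0.076 ± 0.090 (SE) without it.

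Prdx6, the cytosolic peroxiredoxin with a single reactive cysteine, read 8.91, 8.94, 8.99 and 8.91 in EX, and 9.11, 8.93, 8.86 and 8.93 in PA. In SED it read 9.0, 9.0, 8.75 and 8.85, a range that holds every EX value. EX differed from SED by 0.038 ± 0.090 (SE) and PA from SED by 0.058 ± 0.090, with adjusted limma p-values of 0.867 and 0.779. Leaving SED 1 out gave 0.071 ± 0.089 (SE) for EX and 0.091 ± 0.089 for PA. After quantile normalization both differences had the opposite sign, -0.047 and -0.033.

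**Figure D2:**
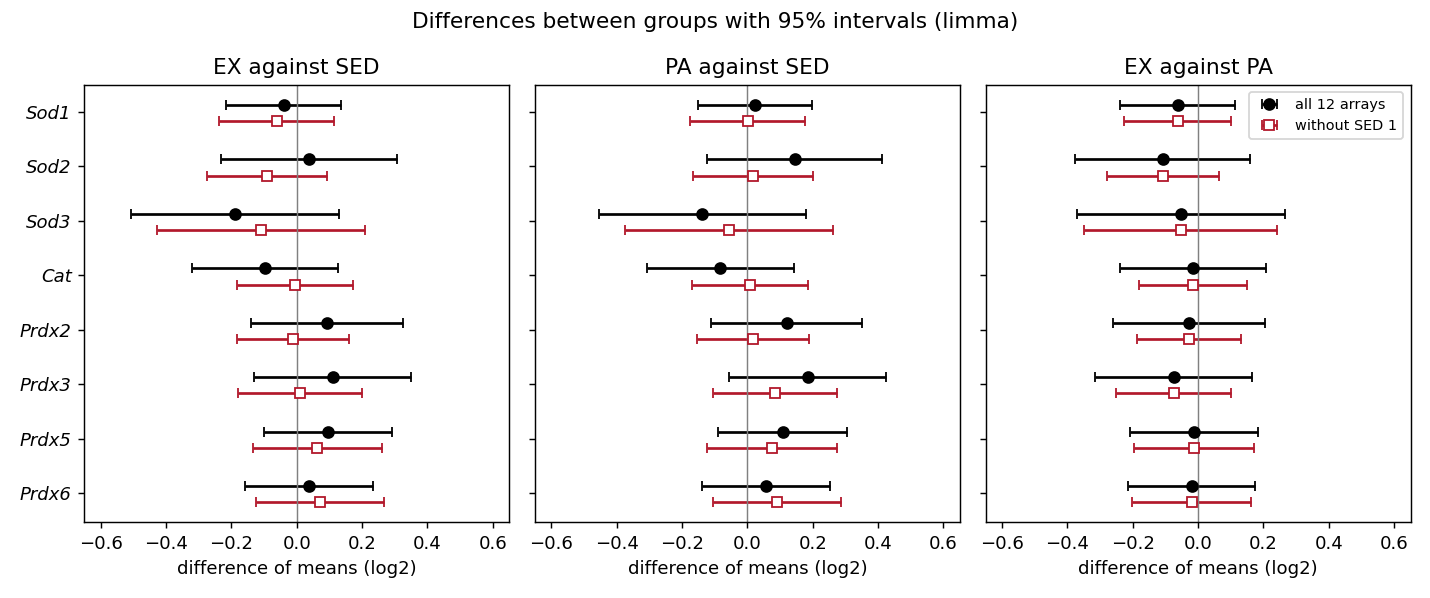
Differences of group means in log2 units with 95% intervals from limma, for all 12 arrays (filled circles) and without SED 1 (open squares), for EX against SED, PA against SED and EX against PA from left to right. All intervals include 0, and the intervals of Sod2, Cat, Prdx2 and Prdx3 are narrower without SED 1.

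The EX against PA comparison asks whether continuous access to exercise differs from short sessions. All 8 members had a lower mean in EX than in PA, and so 0 of 8 a higher one, where 47.1% of tested probe sets had a higher mean in EX. With all arrays none of these differences was larger than its standard error: they ran from -0.11 for Sod2 to -0.013 for Prdx5. Without SED 1 the differences were unchanged, but that of Sod2 was larger than its standard error, which fell to 0.078. For the other members the difference stayed smaller than its standard error. The values that follow are again with all arrays. By limma 0 of 8 members passed, with 0% of all probe sets called, 0 of 8 had an unadjusted p under 0.05 (2.87% of probe sets) or no overlap (2.78%), and the adjusted p was 1 for each. Intervals reached from 0.771-fold to 1.20-fold. A moderated F test over the 3 groups also called 0 of 8 members (0% of probe sets), with adjusted p-values from 0.651 for Prdx3 to 0.927 for Prdx6, and the unadjusted p was at least 0.278 for each member.

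Direction against SED depended on SED 1. With all arrays 5 of 8 members were higher in EX than in SED, where 59.8% of probe sets were, and 6 of 8 were higher in PA, where 61.0% were. Without SED 1 the counts were 3 and 7, and the median difference over the members was -0.0083 for EX and 0.017 for PA, against 0.038 and 0.083 with it. Over all tested genes the median was 0.014 for EX and 0.032 for PA without SED 1, against 0.033 and 0.048 with it. EX against SED and PA against SED share the 4 SED arrays, so their values for a member are not independent.

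SED 1 was the highest or lowest array for 6 of the 8 members, lowest for Sod2, Prdx2, Prdx3 and Prdx5 and highest for Sod3 and Cat. Its distance from the median of the other 11 arrays was -0.49 for Sod2, -0.45 for Prdx3, -0.42 for Prdx2 and -0.19 for Prdx5. It was 0.34 for Sod3 and 0.35 for Cat, and -0.050 for Sod1 and 0.070 for Prdx6. SED 1 thus held a mix of high and low members rather than a shift of all of them. Among the other arrays, PA 1 was highest for Sod1, Sod2, Prdx3 and Prdx6 and lowest for Cat, while over all tested probe sets it was highest or lowest for 12.6%.

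**Figure D3:**
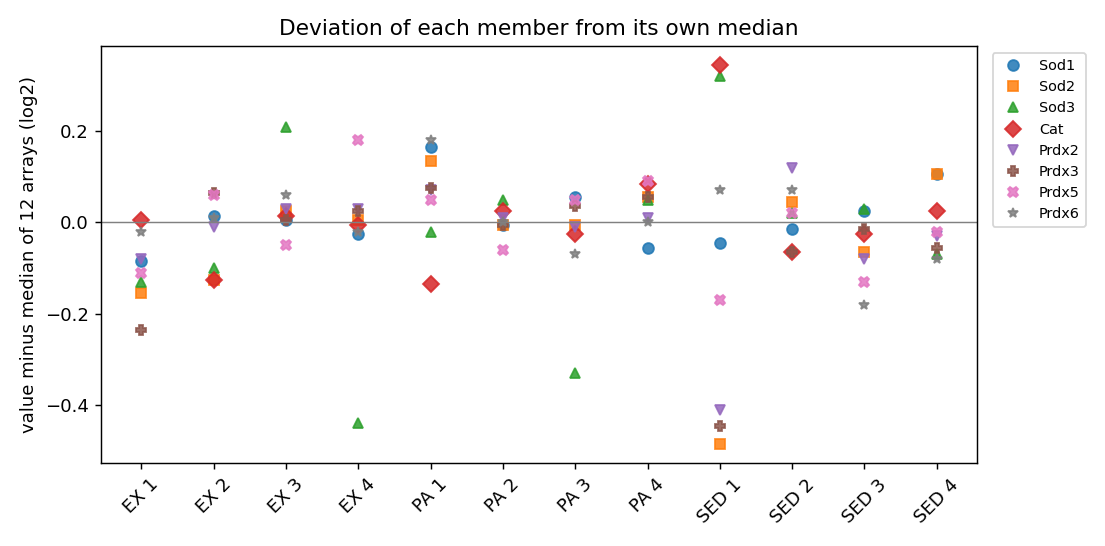
Each member's value on each array minus its median over the 12 arrays, in log2 units, with 1 symbol per member and arrays in the order EX, PA, SED. Most points lie within 0.2 of 0; SED 1 spreads widest, with Sod2 at the bottom and Cat at the top, and EX 4 is low for Sod3.

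The gene with the profile most like each member was found among the 10243 other tested genes by Pearson's r over the 12 arrays. For Sod2 it was Atp5f1e, a subunit of mitochondrial ATP synthase (r = 0.986, Spearman's rho = 0.979, and r = 0.944 without SED 1). For Prdx5 it was Atp5pf, another ATP synthase subunit (r = 0.912, rho = 0.921, and r = 0.926 without SED 1). Prdx3 was nearest to Cd36, the fatty acid uptake protein (r = 0.982, rho = 0.925, and 0.964 without SED 1), and Prdx2 to Chchd10, a mitochondrial intermembrane protein (r = 0.974, rho = 0.898, and 0.860 without SED 1). The nearest genes were C2cd3 for Cat (r = 0.957), Hdlbp for Sod3 (r = 0.905), St3gal2 for Prdx6 (r = 0.907) and Rab3b for Sod1 (r = 0.837). Without SED 1 these r were 0.833 for Cat, 0.868 for Sod3, 0.905 for Prdx6 and 0.825 for Sod1. Each r is the highest of many, the genes share the same arrays and their quality, and the values are a description with no test.

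Genes around these enzymes were followed in 5 lists, and no gene of any list passed in EX against SED or PA against SED. From each list the 3 genes with the smallest p in either comparison are named, so their differences are not independent of that choice. Of the thioredoxin system and other partners, 12 of 17 tested genes were higher in EX than in SED (57.0% of all 10244 tested genes were) and 13 of 17 higher in PA (59.9% of all genes). The list's median difference was 0.11 for EX and 0.083 for PA, and 0.0058 for both without SED 1. Prdx4, the peroxiredoxin of the endoplasmic reticulum, read 9.06, 9.15, 8.93 and 9.04 in EX, against 8.04, 8.72, 9.10 and 8.42 in SED. All but 1 SED array lay under the EX range, SED 3 lay within it, and the difference was 0.47 ± 0.18 (SE) with an adjusted limma p of 0.240. Without SED 1, the lowest array for Prdx4, it was 0.30 ± 0.14 (SE). Sesn2, a stress-induced sestrin, differed by -0.45 ± 0.14 (SE) in PA against SED, with an adjusted limma p of 0.207, and by -0.38 without SED 1. Glrx2, a mitochondrial glutaredoxin, had 2 probe sets that disagreed: the brighter differed by -0.37 and the dimmer by 0.25 in EX against SED. Without SED 1 these Glrx2 differences were -0.28 and 0.082.

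Among sources of superoxide and peroxide, 5 of 13 tested genes were higher in EX and 8 of 13 in PA. Maoa, a mitochondrial monoamine oxidase that releases peroxide, read 11.86, 11.79, 11.78 and 11.68 in EX, against 11.58, 11.32, 11.59 and 11.15 in SED. The groups did not overlap, as for 6.76% of all genes, and the difference was 0.37 ± 0.12 (SE) with an adjusted limma p of 0.181. The Maoa difference without SED 1 was 0.42. Xdh, xanthine dehydrogenase, differed by -0.38 ± 0.14 (SE) in EX against SED at an adjusted limma p of 0.231. The Xdh difference without SED 1 was -0.50 ± 0.12 (SE). Ncf4, a phagocyte NADPH oxidase subunit, differed by -0.31 ± 0.12 (SE) in EX and -0.32 ± 0.12 in PA, each against SED, with adjusted limma p-values of 0.257 and 0.265. Leukocyte markers were measured beside that gene: the mean of the 14 listed ones was 7.39 to 7.76 in EX, 7.56 to 8.05 in PA and 7.17 to 8.58 in SED, with SED 3 highest and SED 1 lowest. Against SED, 12 of 14 were lower in EX and 7 of 14 in PA, where 57.0% and 59.9% of all tested genes were higher. Without SED 1, 14 of 14 were lower in EX and 12 of 14 in PA. The markers were split on SED 1. Its distance from the median of the other 11 arrays was 0.56 for Lyz2 and 0.39 for C1qc, but -2.58 for S100a8 and -1.28 for Cd68. Their part in the Ncf4 values was not tested.

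Of transcription factors and targets of Nrf2, 10 of 24 tested genes were higher in EX and 12 of 24 in PA. The counts without SED 1 were 8 and 13. Slc7a11, the cystine importer, read 5.16, 5.31, 4.97 and 5.17 in EX, 5.18, 4.92, 5.10 and 5.07 in PA, and 5.70, 5.61, 5.59 and 5.39 in SED. Both active groups lay wholly under SED, by -0.42 ± 0.10 (SE) for EX and -0.51 ± 0.10 for PA, close to the filter on dim probe sets at 4.94. Groups were without overlap for 7.89% of tested probe sets in EX against SED and 8.39% in PA against SED. Leaving SED 1 out gave Slc7a11 differences of -0.38 for EX and -0.46 for PA. With all arrays the adjusted limma p was 0.134 for EX and 0.164 for PA. Mafg, a small Maf partner of Nrf2, differed by -0.41 ± 0.12 (SE) in EX against SED at an adjusted limma p of 0.161, and its other probe set by -0.23. Gclm, the modifier subunit of glutathione synthesis, differed by 0.58 ± 0.19 (SE) in EX against SED at an adjusted limma p of 0.189. Without SED 1, where it read 6.47 against 7.10 to 7.60 on the other SED arrays, the difference was 0.37.

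The list of peroxisome genes had 10 of 15 tested members higher in EX and 12 of 15 higher in PA. It holds Pex genes, which build the organelle that holds catalase, beside the membrane proteins Abcd2, Abcd3, Pxmp2 and Slc25a17. The median difference was 0.11 for EX and 0.16 for PA, against 0.033 and 0.048 over all tested genes, and 0.091 and 0.11 without SED 1. At an unadjusted p under 0.05, 4 of 15 were higher and 0 lower in EX, where 6.97% of all genes were higher and 5.95% lower. In PA 3 of 15 were higher and 0 lower, where 7.33% of genes were higher and 5.14% lower. Pex7, the import receptor for a class of peroxisomal enzymes, read 7.54, 7.43, 7.37 and 7.92 in EX, 7.58, 7.54, 7.84 and 7.55 in PA, and 5.23, 7.21, 7.16 and 6.58 in SED. Both active groups lay above SED, by 1.02 ± 0.35 (SE) for EX and 1.08 ± 0.35 for PA, with adjusted limma p-values of 0.203 and 0.216. Groups were without overlap for 7.89% of tested probe sets in EX against SED and 8.39% in PA against SED. Without SED 1 the differences were 0.58 and 0.64. Pex3, needed to form the peroxisomal membrane, differed by 0.35 ± 0.13 (SE) for EX and 0.47 ± 0.13 for PA, with adjusted limma p-values of 0.240 and 0.196. The Pex3 differences were larger without SED 1, at 0.43 for EX and 0.55 for PA. Pex10, a ubiquitin ligase subunit of the peroxisomal membrane, differed by -0.055 ± 0.11 (SE) for EX and 0.27 ± 0.11 for PA, with adjusted limma p-values of 0.831 and 0.275. Leaving SED 1 out gave -0.078 for EX and 0.24 for PA.

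Genes of mitochondrial content, such as carriers, import subunits and chaperones, had 7 of 13 tested members higher in EX and 8 of 13 in PA, with median differences of 0.0075 and 0.072. Without SED 1, 4 of 13 were higher in EX and 10 of 13 in PA, with medians of -0.022 and 0.059. Hspd1, the mitochondrial chaperonin, read 11.81, 11.81, 11.82 and 11.83 in EX, against 11.36, 11.79, 11.70 and 11.77 in SED. The groups did not overlap, as for 6.76% of all genes, and the difference was 0.16 ± 0.098 (SE) with all arrays, at an adjusted limma p of 0.452, but 0.064 without SED 1. Timm44, an import subunit, differed by -0.30 ± 0.090 (SE) in EX against SED at an adjusted limma p of 0.161, and by -0.30 without SED 1. Slc25a3, the mitochondrial phosphate carrier, differed by 0.055 ± 0.095 (SE) for EX and 0.14 ± 0.095 for PA, with adjusted limma p-values of 0.810 and 0.488, and by -0.022 and 0.063 without SED 1.

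**Figure D4:**
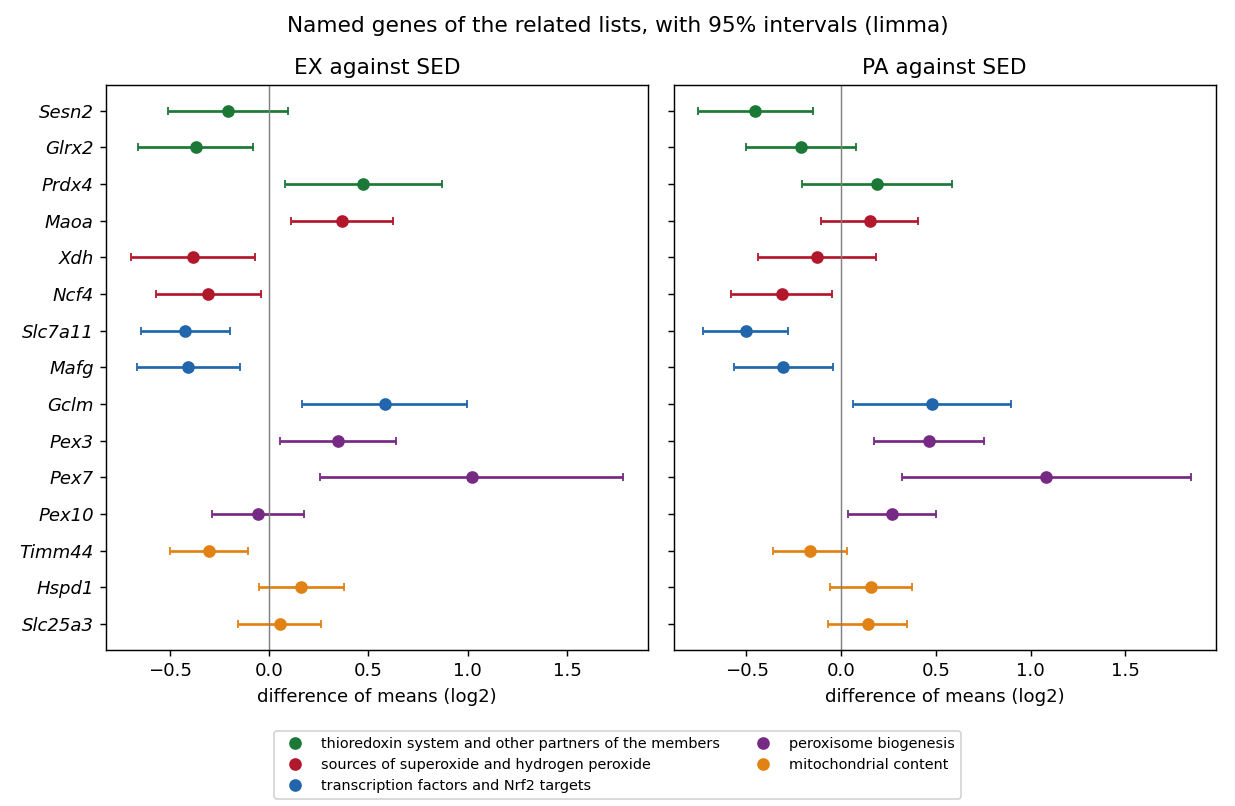
Differences of group means in log2 units with 95% intervals from limma for the named genes of the 5 related lists (colours), in EX against SED (left) and PA against SED (right). Slc7a11, Mafg and Ncf4 lie under 0 and Gclm, Pex3 and Pex7 above 0 in both panels, and no adjusted p reached 0.05. The genes were chosen by the smallest p in these same comparisons, so intervals clear of 0 follow in part from that choice.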

How the data were processed

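RNA of the left ventricle was hybridised at 6 µg per array, per the labels' protocols. The authors deposited 1 table of log2 values for 31099 rows and 12 arrays. Both MAS5 and RMA appear in the submitters' processing notes, with no role given, so background correction and scale are not settled. Values were used as deposited, since array medians lay within 0.2, although the interquartile range was narrower on every SED array than on any EX or PA array. Arrays carry no read depth, and their number limits the precision. Arrays were assigned to groups from their titles.

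The 57 control rows were left out, and probe sets in the upper 60% by mean over all arrays were tested (18626, filter at 4.94). Of the rows, 20826 had 1 gene symbol, 436 several and 9780 none. Of several tested probe sets, the brightest by mean stood for a gene. The test was that of limma 3.58.1, run in R 4.3.3 (3 group means, 12 arrays, 9 residual degrees of freedom, two-sided, Benjamini-Hochberg over all tested probe sets), and the step was tested on simulated data. Named genes are all members and, from each of 5 lists, the 3 with the smallest p in EX or PA against SED (Prdx4 is among them). Members and lists were chosen with earlier results of these data known. Alternatives were quantile normalization, centred medians, an offset of 32 on the linear scale, no filter, the upper 40%, array weights, a replicate block, averaged probe sets and each array left out. Promoters were those of RefSeq, GRCr8. Plots used matplotlib 3.10.9 and Python 3.11.15.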

Additional observations from a re-analysis of the deposited data

Results flagged for a closer look

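A sample was singled out where it stood far from the other 3 of its group by Dixon's ratio, which chance passes in about 1 group in 20, over 69 groups of 4 arrays. This was the case in 5 groups. Prdx3 read 11.16 on SED 1, against 11.54 to 11.59 on the other SED arrays. Cat read 12.03 on EX 2, against 12.15 to 12.17 on the other EX arrays. Among genes of the related lists, Gclm read 7.52 on EX 3, against 7.74 to 7.78 in the rest of EX. Ncf4 read 4.92 on PA 2, against 5.34 to 5.41 in the rest of PA. Pex7 read 7.84 on PA 3, against 7.54 to 7.58 in the rest of PA. For Sod2, Sod3, Cat and Prdx2 the SED 1 array was also the farthest of its group, with ratios of 0.712, 0.744, 0.780 and 0.623, under Dixon's 95% critical value.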

How the results depend on the processing

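Over 24 member differences (8 members, 3 comparisons) and 20 alternatives, 462 of 480 values kept their direction and their side of the threshold, 18 changed sign and 0 passed; the lowest adjusted limma p was 0.324 and the lowest unadjusted p 0.0578. Of the 24, 14 changed sign nowhere. The sign changed with quantile normalization for Prdx6 in EX against SED (-0.047) and PA against SED (-0.033) and in EX against PA for Cat (0.0056) and Prdx5 (0.00021), and with array weights in EX against SED for Sod2 (-0.052) and Prdx2 (-0.0075). The cause was not tested. With each array left out in turn, ranges that crossed 0 were, in EX against SED, -0.091 to 0.11 for Sod2, -0.011 to 0.17 for Prdx2 and -0.013 to 0.071 for Prdx6. They were -0.13 to 0.0092 for Cat and -0.019 to 0.054 for Sod1 in PA against SED. In EX against PA they were -0.056 to 0.018 for Cat, -0.066 to 0.031 for Prdx5, -0.053 to 0.031 for Prdx6 and -0.16 to 0.056 for Sod3. Over all 18626 probe sets, array weights gave 8 calls in EX against SED, 1 in PA against SED, 1 in EX against PA and 6 in the F test, where the main counts were 0. With 1 array left out, EX against SED and the F test each had 0 to 2 calls (1 without EX 2, 2 without SED 1), and 0 members were called under any of these. The replicate block gave 0 calls in each comparison and changed no call. Deviations of arrays with the same number correlated from -0.21 to 0.13, with 4 of 12 pairs over 0.1. For arrays with different numbers the range was -0.21 to 0.22, with 10 of 36 pairs over 0.1. With 4 arrays a group, such correlations cannot settle whether the numbers pair the arrays. Precision rests on 4 pooled arrays a group, and no array carries a depth.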

Other observations

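Fibroblast markers, such as Col1a1, Dcn and Pdgfra, had a mean over 8 genes of 9.56 to 9.70 in EX, 9.52 to 9.83 in PA and 9.36 to 9.73 in SED, with the lowest mean on SED 1. These markers were split on SED 1. Its distance from the median of the other 11 arrays was 0.36 for Col1a1 and 0.31 for Pdgfra. It was -0.87 for Dcn, -0.75 for Postn, -0.57 for Lum, -0.39 for Col1a2, -0.33 for Tcf21 and -0.13 for Col3a1. Endothelial markers, such as Pecam1 and Kdr, had a mean over 7 genes of 9.55 to 9.69 in EX, 9.64 to 9.78 in PA and 9.58 to 9.81 in SED, with the highest mean on SED 1. They were split there too. The distance of SED 1 from the median of the other 11 arrays was 1.0 for Tie1, 0.68 for Tek, 0.24 for Vwf and 0.12 for Pecam1. It was -0.63 for Emcn, -0.38 for Flt1 and -0.070 for Kdr. Of the adipocyte markers Cfd alone was tested, at 6.46 to 7.56 in EX, 6.88 to 7.28 in PA and 6.92 to 8.05 in SED. Their part in the values of the members was not tested.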
